A study of Mus musculus with 24 samples.

Results

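The genes described here are 9 mouse GTPase genes that interferon γ is known to induce: the guanylate-binding protein genes Gbp2, Gbp3, Gbp4, Gbp5 and Gbp7, and the immunity-related GTPase genes Igtp, Irgm1, Irgm2 and Iigp1. They were taken by symbol from a count table of 27179 genes, and all 9 were found there and passed the filter on low counts, as did 17824 genes in all. The study sequenced RNA of whole visceral (perigonadal) fat from mice aged 27 to 33 weeks, in 6 groups of 4 libraries. Each sex was represented by 3 genotypes, which the labels call PpargFoxp3cre, TbetFoxp3cre and Foxp3cre (control). All groups, controls included, carried a Cre recombinase driven by Foxp3, the transcription factor that defines regulatory T cells. In PpargFoxp3cre mice the nuclear receptor gene Pparg was a conditional knockout in these cells. In TbetFoxp3cre mice the same was done for T-bet, the type 1 lymphocyte transcription factor encoded by Tbx21. The GTPase genes were therefore targeted in no group, and regulatory T cells are a small part of the cells whose RNA was measured.

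Interferon γ binds a receptor that activates the kinases JAK1 and JAK2. Its signal reaches genes through GAS elements (gamma-activated sites) and through IRF1, an induced transcription factor that binds ISRE elements (interferon-stimulated response elements), which type I interferon also uses. The GTPases made in response attack vacuoles that hold bacteria or parasites: guanylate-binding proteins and effector IRGs such as Iigp1 (Irga6) coat and disrupt the vacuole, while Irgm1, Irgm2 and Igtp (Irgm3) regulate the effectors and protect the cell's own membranes.

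The DNA before the start sites of the members was read to show the letters of these elements. RefSeq start site windows (build GRCm38.p6) matched 7 of 9 members by gene identifier, and the 250 bases before each start site were searched on both strands for the GAS letters TTCNNNGAA and for ISRE letters, GAAA and again GAAA separated by any 2 bases. Gbp3 has 2 windows, and the others have 1 each. ISRE letters were present in 7 of these 8 windows, at least 1 for each matched member, against 2.98% of 32851 windows in the RefSeq table. GAS letters were present in 4 of 8 (Gbp5, Gbp7, Igtp and Irgm2), against 7.02% of the windows, and both were present in the same 4, against 0.332%; the other Gbp3 window held no match of either kind. A match is a description of the letters and shows neither binding nor a cause. The 5 stretches below were chosen because they belong to the called member that has a window (Gbp5), to the member with the highest level per length (Gbp2) and to the 3 regulatory IRGs. Capitals mark GAS or ISRE letters, and each sequence runs 5′ to 3′ on the gene's strand up to the base before the RefSeq start site. For Irgm2 no GENCODE M21 transcript begins at that site, though both annotations place the gene on the plus strand.
Gbp5, chr3:142496754-142496933, plus strand: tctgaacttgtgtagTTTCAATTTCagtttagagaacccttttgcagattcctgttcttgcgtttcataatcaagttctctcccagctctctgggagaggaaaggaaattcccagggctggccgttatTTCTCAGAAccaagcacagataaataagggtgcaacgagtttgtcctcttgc
Gbp2, chr3:142620563-142620662, plus strand: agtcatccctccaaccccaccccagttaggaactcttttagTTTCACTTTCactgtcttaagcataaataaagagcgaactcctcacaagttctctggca
Irgm1, chr11:48871421-48871520, minus strand: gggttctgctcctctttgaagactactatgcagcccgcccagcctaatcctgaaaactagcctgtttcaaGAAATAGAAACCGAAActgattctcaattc
Igtp, chr11:58199456-58199555, plus strand: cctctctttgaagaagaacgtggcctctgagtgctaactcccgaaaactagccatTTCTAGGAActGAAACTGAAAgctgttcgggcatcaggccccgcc
Irgm2, chr11:58214877-58214976, plus strand: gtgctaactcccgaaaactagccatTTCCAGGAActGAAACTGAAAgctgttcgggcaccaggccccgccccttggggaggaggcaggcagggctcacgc

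In Gbp5 the ISRE letters begin 165 bases before the start site and the nearer GAS letters 52 bases before it; a further GAS match at 245 bases lies outside the printed stretch. In Gbp2 the ISRE letters begin at 59 bases. In both Gbp5 and Gbp2 the ISRE letters are on the opposite strand. Irgm1 holds 2 overlapping ISRE matches, at 30 and 24 bases, which print as a single run of capitals, and Gbp3 likewise has 2 overlapping matches, at 45 and 39 bases. Gbp7 has GAS letters at 106 and 87 bases and ISRE letters at 53 bases. In Igtp and Irgm2 the GAS and ISRE letters stand side by side with the same spacing, at 45 and 34 bases in Igtp and at 75 and 64 bases in Irgm2. Aligned at these matches, the Igtp and Irgm2 stretches were identical at 68 of 70 bases, with a longest shared run of 29 bases.

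**Figure D1:**
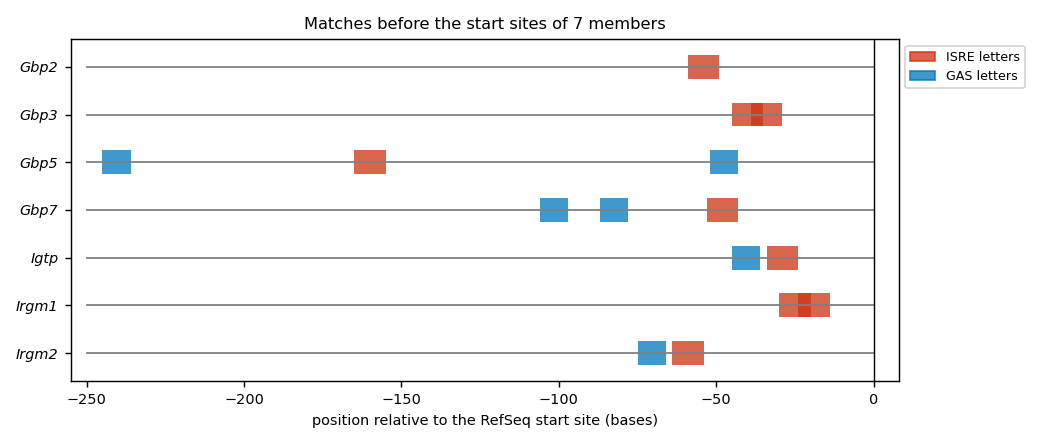
Positions of ISRE letters (red) and GAS letters (blue) before the RefSeq start sites of the 7 matched members; the horizontal axis is the distance from the start site in bases, negative before it. Each of the 7 genes has a window with ISRE letters, which begin within 64 bases of the start site in all but Gbp5, and 4 also carry GAS letters.

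Gbp5, Gbp7, Gbp3 and Gbp2 lie in this order on chromosome 3, between base 142496934 and base 142638008 (GRCm38.p6), and Gbp4 lies on chromosome 5, from 105115767 to 105139586. Irgm1 (48865245 to 48871420), Igtp (58199556 to 58207592) and Irgm2 (58214977 to 58222783) lie on chromosome 11. Members of these families share sequence, and the GENCODE M21 models of Igtp and Irgm2 overlap. How the authors' counting treated reads shared between paralogs is not given in the sources used here, so values of single members, and of Igtp and Irgm2 above all, carry that uncertainty.

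Library totals ranged from 8345575 to 31022845 counts, and the lowest count of any member in any library was 277 (Gbp5), so counting error was small beside the spread between libraries. The 9 genes together took 0.0425% ± 0.0158 of counts (SD, n = 4) in control females and 0.113% ± 0.0804 in T-bet knockout females. The submitters' titles place 2 libraries of each group in each of 2 batches; replicates 1 and 3 are batch 1 and replicates 2 and 4 batch 2. Adipocyte markers were high in every library, with a summed level of 5457 to 48410 CPM (counts scaled to the library total, with TMM factors), and no marker of the list was at 0. Control female replicate 1 stood apart, with the lowest adipocyte sum and 722 CPM of ductal epithelium markers, which summed to 9.43 to 22.6 CPM in the other control females. Pparg ranged from 64.8 to 362 CPM and Tbx21 from 0.0751 to 2.65 CPM over the libraries; fat cells make Pparg and lymphocytes other than the targeted ones make Tbx21, and neither level checks the genotype labels.

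The median levels of the members lay between percentile 58.8 and percentile 90 of all genes with an FPKM value. On the scale that allows genes to be compared, the authors' log2 FPKM (fragments scaled to gene length and depth), the median level over the 24 libraries was 5.49 for Gbp2, 4.43 for Iigp1, 4.39 for Irgm1, 4.32 for Gbp3, 4.16 for Igtp and 4.05 for Gbp4. Irgm2 (3.74), Gbp5 (3.46) and Gbp7 (3.36) were lowest of the 9. From the lowest to the highest library, CPM differed 3.99-fold for Irgm1 and 22-fold for Iigp1, and replicate 2 of the T-bet knockout females was the highest of the 24 libraries for all 9 genes. It was also the library with the lowest total, 8345575 counts, followed by replicate 4 of the same group with 9463144.

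T-bet knockout females had the highest mean of the 6 groups for all 9 members, and Pparg knockout males the next highest for all 9. The lowest mean was that of control males for 6 members and that of control females for 3. The groups were not separated along this order: for every member, each group's range of libraries overlapped that of the group ranked next to it. In an edgeR quasi-likelihood test of any difference among the 6 groups, with Benjamini-Hochberg adjustment over all genes, 4 of 9 members were called at an adjusted p under 0.05, against 25.6% of all genes: Gbp4 (adjusted p = 0.0115), Gbp5 (0.0147), Igtp (0.0218) and Irgm2 (0.0335). Without replicate 2 of the T-bet knockout females Gbp4 and Gbp5 were called, and 7 members were called without Pparg knockout female replicate 4, T-bet knockout female replicate 4 or control male replicate 3. The share of all genes called in these fits is not given here.

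**Figure D2:**
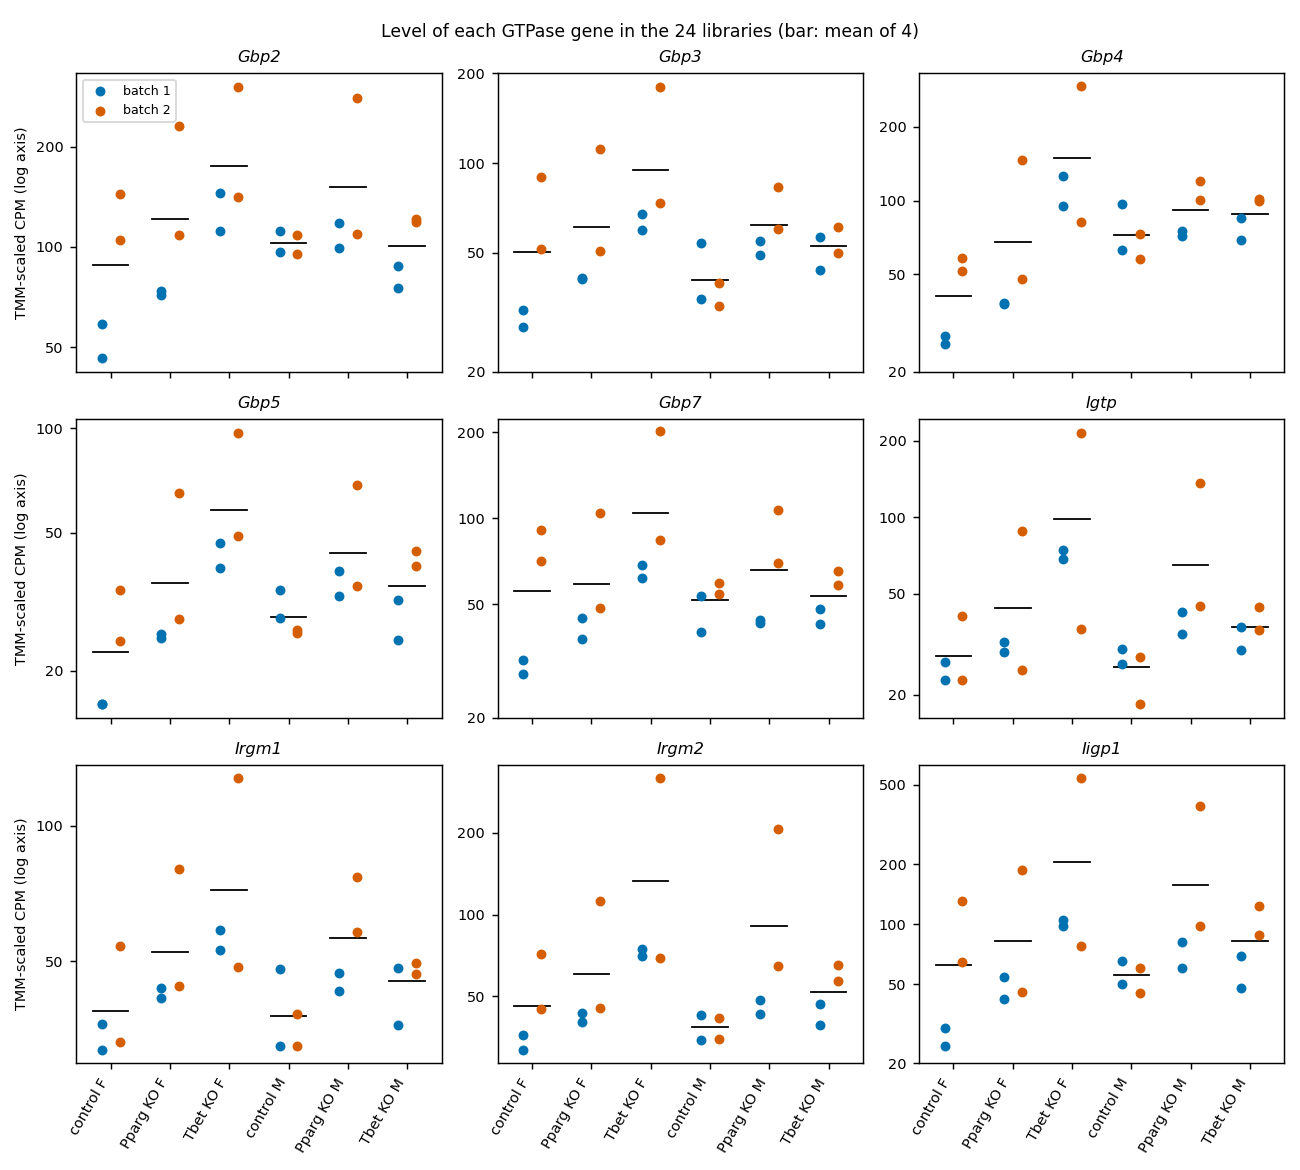
Level of each member in the 24 libraries, as TMM-scaled CPM on a log axis, for the 6 groups; points are libraries, blue for batch 1 and orange for batch 2, and black bars are means of 4. T-bet knockout females have the highest mean in all 9 panels, and Iigp1 has a single library far above the rest of its group in T-bet knockout females (540 CPM), Pparg knockout females (187 CPM) and Pparg knockout males (390 CPM).

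The comparison of T-bet knockout with control females asked how fat differs when regulatory T cells lack T-bet. Gbp4 and Gbp5 rose, and the other 7 members had positive fold changes that were not called: 2 of 9 members passed, both higher, against 1.22% of all genes in either direction, 0.583% higher and 0.64% lower. All 9 had an unadjusted p under 0.05 in edgeR, against 17.3% of all genes, and their median log2 fold change was 1.36, against -0.04 over all genes. The members rose and fell together between libraries, as described below, so these 9 values are not separate observations. Without T-bet knockout female replicate 2 the members' median was 0.84, and with the highest library of each of 3 knockout groups removed it was 0.745, with all 9 positive in both. In whole tissue, more cells that express these genes and more RNA of them per cell cannot be told apart.

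Gbp4, a guanylate-binding protein, was at 28.1, 58.3, 25.9 and 51.5 CPM in control females and at 95.1, 294, 126 and 81.8 CPM in T-bet knockout females, in the order of replicates 1 to 4. Every knockout library was above every control library. On the log2 scale it rose by 1.89 (SE 0.37, adjusted p = 0.0196). Gbp5, which promotes inflammasome assembly, was at 16.1, 34.2, 16.1 and 24.4 CPM in control females and at 39.7, 97.1, 46.7 and 48.9 CPM in the knockouts, again without overlap, and rose by 1.36 on the log2 scale (SE 0.28, adjusted p = 0.0247). These were the only members whose 4 knockout libraries all lay above the 4 controls, a pattern shown by 2.83% of all genes.

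Both calls depended on which libraries were kept, while the fold changes stayed positive: with each of the 24 libraries left out in turn, the log2 fold change was 1.50 to 2.14 for Gbp4 and 1.13 to 1.52 for Gbp5. Without T-bet knockout female replicate 2, the adjusted p was 0.0609 for Gbp4 (log2 fold change 1.50) and 0.0745 for Gbp5 (1.13). Without T-bet knockout female replicate 3, the adjusted p was 0.0681 for Gbp4 and 0.0843 for Gbp5. Without control female replicate 3 it was 0.053 and 0.0623, and without control female replicate 4 it was 0.0589 and 0.0749. Gbp5 also lost its call without T-bet knockout female replicate 1 (0.0651) or control female replicate 1 (0.0549), the library with ductal epithelium markers, while Gbp4 was called without either. With the highest library of each of 3 knockout groups removed together, both genes were called by edgeR, Gbp4 at 1.41 (adjusted p = 0.0154) and Gbp5 at 1.07 (adjusted p = 0.021). These libraries were chosen after the data were seen, as the highest in these same members. Leaving out such libraries can lower the spread that the test estimates, so these calls do not make up for those lost above.

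Of the other guanylate-binding protein genes, Gbp2 was at 46.3, 144, 58.5 and 105 CPM in control females and at 146, 303, 111 and 141 CPM in the knockouts. The ranges overlapped, and the log2 fold change was 1.04 (SE 0.31, adjusted p = 0.0974). Gbp3 was at 28.2, 90.1, 32.3 and 51.7 CPM in control females and at 59.9, 179, 67.7 and 73.3 CPM in the knockouts (log2 fold change 0.93, SE 0.32, adjusted p = 0.147). Gbp7 gave 0.94 (SE 0.27, adjusted p = 0.0913), with control libraries at 28.4 to 91.0 CPM and knockout libraries at 61.8 to 202 CPM. In all 3 genes a batch 2 control library reached into the range of the knockouts.

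None of the 3 regulatory IRG genes was called. Igtp was at 27.0, 41.1, 22.8 and 22.9 CPM in control females and at 68.4, 216, 74.6 and 36.4 CPM in the knockouts, so only replicate 4 of the knockouts fell within the control range. Its log2 fold change was 1.75 (SE 0.46, adjusted p = 0.0712), and it was called without T-bet knockout female replicate 4 (2.05, adjusted p = 0.0324) or Pparg knockout female replicate 4 (1.76, adjusted p = 0.0458). Irgm2 was at 35.9, 71.5, 31.8 and 44.8 CPM in controls and at 74.9, 317, 70.6 and 69.0 CPM in the knockouts (1.44, SE 0.42, adjusted p = 0.0934). Irgm1, the member that varied least, gave 0.87 (SE 0.26, adjusted p = 0.0974), with controls at 31.8 to 53.9 CPM and knockouts at 48.6 to 127 CPM.

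Iigp1, the effector IRG, had the widest spread. It was at 30.2, 130, 24.5 and 64.5 CPM in control females and at 105, 540, 97.6 and 78.0 CPM in the knockouts. The log2 fold change was 1.75 with an SE of 0.55 (adjusted p = 0.118), so a fold change as large as that of Igtp came with a larger error. Without T-bet knockout female replicate 2 the log2 fold change of Iigp1 was 1.07, and those of the others that moved by over 1.5 times were 0.84 for Irgm2, 0.56 for Gbp3, 0.62 for Gbp7 and 0.53 for Irgm1.

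The female T-bet comparison differed in clarity between the batches. In batch 1, both knockout libraries were above both control libraries for all 9 members, a pattern shown by 24.3% of all genes with 2 libraries a group. In batch 2 this held for Gbp4 and Gbp5 alone, against 23.7% of all genes. Fitted on batch 1 alone with edgeR, 8 of 9 members were called (3.46% of all genes), all except Irgm1, with a median log2 fold change of 1.30. Fitted on batch 2 alone, 0 were called (0.664% of all genes), with a median of 1.32 and a lowest adjusted p of 0.263. DESeq2 on all libraries called 8 of 9, all except Gbp3 (adjusted p = 0.0574), and it called 6.63% of all genes. The median fold changes of the batches were alike, and the numbers of calls were not. The batch 1 controls include control female replicate 1, the library with ductal epithelium markers, whose title and source name disagree on the batch.

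**Figure D3:**
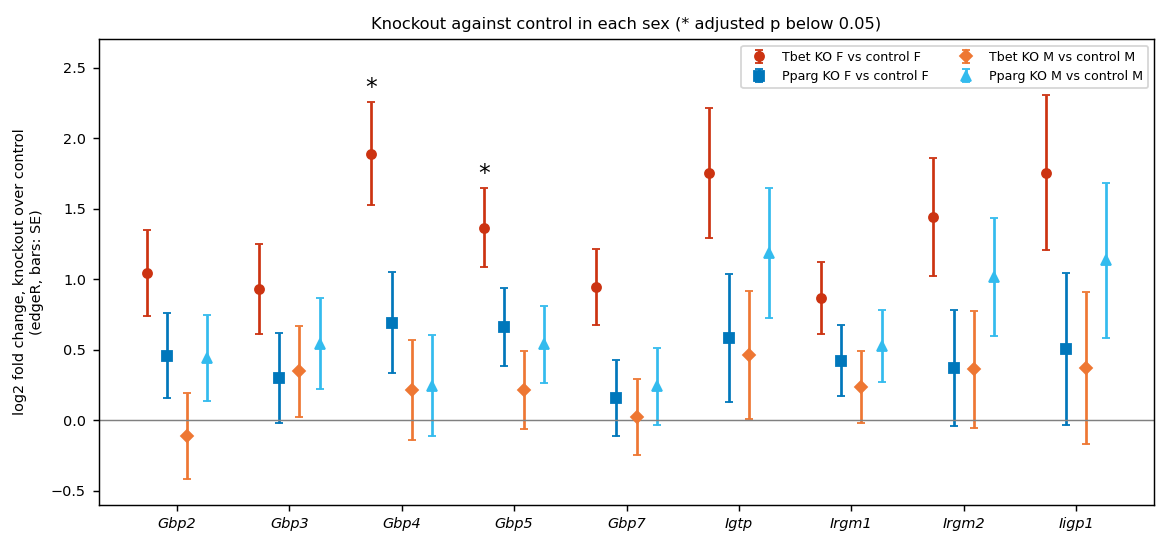
Log2 fold change of each member, knockout over control, with its standard error, from edgeR, for the 4 comparisons of knockout with control. Red circles (T-bet knockout females) are the highest of the 4 values for all 9 genes, and asterisks mark the called genes Gbp4 (1.89) and Gbp5 (1.36).

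Pparg knockout females share their control libraries with the T-bet knockout females. No member was called (0.0168% of all genes), and 1 member, Gbp5, had an unadjusted p under 0.05 in edgeR; DESeq2 also called 0. The 9 log2 fold changes were all positive, from 0.16 (Gbp7) to 0.69 (Gbp4), with a median of 0.46. Gbp4 was at 38.0, 48.1, 38.1 and 146 CPM and Gbp5 at 24.9, 28.2, 25.6 and 65.1 CPM in these females. Replicate 4 was the highest library of the group for all 9 members, and for Gbp4 and Gbp5 the other 3 libraries lay within the range of the controls. With the highest library of each of 3 knockout groups removed the median was 0.01, with 5 of 9 positive. For 0 members were all Pparg knockout libraries above all controls, against 1.35% of all genes.

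Compared directly, T-bet knockout females had a higher value than Pparg knockout females for all 9 members, with a median log2 difference of 0.78. No member was called (0% of all genes), 6 had an unadjusted p under 0.05 in edgeR, and DESeq2 called 0. The largest differences were those of Iigp1 (1.25, SE 0.54, adjusted p = 0.997) and Gbp4 (1.20, SE 0.36, adjusted p = 0.566).

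In males the T-bet knockout left no called member, against 0.00561% of all genes. The log2 fold changes ran from -0.11 (Gbp2) to 0.46 (Igtp), with a median of 0.24, and 0 had an unadjusted p under 0.05 in edgeR; DESeq2 called 0. Gbp4 was at 62.8, 57.9, 96.9 and 73.3 CPM in control males and at 85.0, 101, 68.8 and 99.2 CPM in T-bet knockout males, with overlapping ranges. Gbp5 was at 28.4, 25.7, 34.3 and 26.3 CPM in control males and at 32.0, 40.1, 24.5 and 44.4 CPM in the knockouts. For 0 members were all knockout libraries above all controls, against 0.752% of all genes.

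Pparg knockout males, compared with the same control males, had positive log2 fold changes for all 9 members, with a median of 0.54 and no call (0% of all genes). In edgeR 2 members had an unadjusted p under 0.05, and DESeq2 called 0. These were Igtp (log2 fold change 1.19, SE 0.46) and Irgm2 (1.02, SE 0.42), both with an adjusted p of 1. Igtp was at 26.6, 18.4, 30.2 and 28.3 CPM in control males and at 42.6, 136, 34.9 and 44.8 CPM in the knockouts. Irgm2 was at 34.7, 34.8, 42.6 and 41.6 CPM in control males and at 48.4, 206, 43.1 and 64.4 CPM in the knockouts. In both genes every knockout library was above every control, which held for 0.898% of all genes, and replicate 2 was far above the other 3. Without that library the log2 fold changes fell to 0.69 and 0.49. Between T-bet and Pparg knockout males no member was called (0% of all genes called, 0 members with an unadjusted p under 0.05 in edgeR, 0 called by DESeq2), and all 9 differences were negative, with a median of -0.32.

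The T-bet effect was smaller in males than in females for all 9 members, but the difference of the effects was called for none (0.00561% of all genes). The median difference, male effect minus female effect, was -1.15 on the log2 scale, and 4 members (Gbp2, Gbp4, Gbp5 and Gbp7) had an unadjusted p under 0.05 in edgeR, while DESeq2 called 0. Gbp4 had the largest, -1.68 (SE 0.51, adjusted p = 0.281). Within T-bet knockouts, males were lower than females for all 9 members, with a median of -0.77; no member was called (9.31% of all genes), 8 had an unadjusted p under 0.05, and the lowest adjusted p was that of Gbp7 (-0.86, SE 0.27, adjusted p = 0.0524). DESeq2 called 3 there, Gbp7, Igtp and Irgm2. So did edgeR without T-bet knockout female replicate 4. It called Igtp and Irgm2 without Pparg knockout male replicate 2, and Gbp7 without Pparg knockout female replicate 2 or 4 or control female replicate 1 or 2. For DESeq2 and these fits the share of all genes called is not given here.

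Between control males and females edgeR called no member, while it called 27.2% of all genes. The median was 0.06, with 5 of 9 higher in males. The batches differed in sign. In batch 1 the mean of control males was above that of control females for every member, as for Iigp1 (57.8 against 27.4 CPM). In batch 2 it was below for every member except Gbp4, and Iigp1 was at 52.7 CPM in males against 97.3 CPM in females. Gbp4 came closest, with 62.8, 57.9, 96.9 and 73.3 CPM in males against 28.1, 58.3, 25.9 and 51.5 CPM in females (0.97, SE 0.36, adjusted p = 0.0526), and it was the 1 member with an unadjusted p under 0.05 and the 1 that DESeq2 called. Without control male replicate 2, T-bet knockout female replicate 2 or 4, or Pparg knockout female replicate 4, Gbp4 was called by edgeR. Macrophage markers were called higher in control males for 9 of 10 genes and endothelial markers for 6 of 8. Of 22 other interferon γ targets 4 were called, all higher in males (Ubd, Nos2, Cd274 and Tapbp). Of 20 other interferon-induced GTPase genes Gbp9 was called higher in males and Gbp8 lower. Of 14 ligand, receptor and signalling genes Ifngr1 was called higher and Socs1 lower. Of 20 type I interferon response genes Ifi44 was called lower. Between Pparg knockout males and females no member was called (8.77% of all genes called, 0 unadjusted p under 0.05, 0 called by DESeq2), with a median of 0.37, and Gbp4 was called without Pparg knockout female replicate 4. The difference of the Pparg effect between the sexes was called for no member (0% of all genes, 0 with an unadjusted p under 0.05, 0 by DESeq2), with a median difference of 0.10.

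In 3 knockout groups a single library had the highest level of every member, by a margin that differed between members. T-bet knockout female replicate 2 was above the other batch 2 library of its group 6.92-fold for Iigp1, 5.93-fold for Igtp, 4.59-fold for Irgm2 and 3.59-fold for Gbp4, and 1.99-fold for Gbp5. Pparg knockout female replicate 4 was above its batch 2 groupmate 4.07-fold for Iigp1, 3.52-fold for Igtp and 3.04-fold for Gbp4, and 1.82-fold for Irgm1. Pparg knockout male replicate 2 was above its groupmate 3.98-fold for Iigp1, 3.20-fold for Irgm2 and 3.04-fold for Igtp, and 1.19-fold for Gbp4. Iigp1 had the largest ratio in each of the 3 libraries, and all 3 belonged to batch 2. Control female replicate 2, also of batch 2, was likewise the highest of its group for all 9 members. It was 2.01-fold over its batch 2 groupmate for Iigp1 and 1.13-fold for Gbp4. Its members summed to 714 CPM (rank 5 of 24), and its type I interferon response genes were at rank 3. Its other interferon-induced GTPase genes were at rank 4, its interferon γ signalling list at rank 14 and its other interferon γ targets at rank 16. In every group except control males, each member's mean was higher in batch 2 than in batch 1. The ratio of batch 2 to batch 1 ran from 1.279 (Irgm1) to 3.555 (Iigp1) in control females. In control males it ran from 0.82 (Gbp3) to 1.21 (Gbp7).

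**Figure D4:**
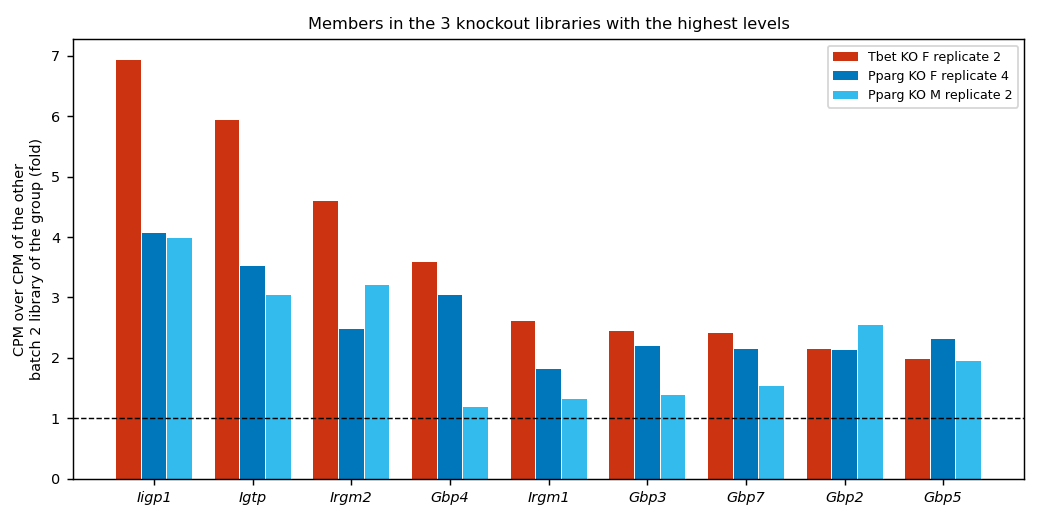
CPM of each member in the 3 highest knockout libraries divided by its CPM in the other batch 2 library of the same group; bars start at 0, and the dashed line is a ratio of 1. Iigp1 has the tallest bar in each library (6.92, 4.07 and 3.98).

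The 3 libraries differed in the markers of immune cells. In T-bet knockout female replicate 2 the summed level of the 9 members was 2274 CPM, the highest of 24, while type 1 lymphocyte genes summed to 30.1 CPM (rank 10 of 24), T cell markers to 23.0 CPM (rank 15) and macrophage markers to 1294 CPM (rank 14). In Pparg knockout female replicate 4 the members summed to 1125 CPM, and type 1 lymphocyte genes (140 CPM), T cell markers (86.3 CPM) and macrophage markers (2520 CPM) were all the highest of 24. Pparg knockout male replicate 2 had members at 1467 CPM, type 1 lymphocyte genes at 63.2 CPM (rank 4) and macrophage markers at 2249 CPM (rank 2). It ranked 1 of 24 for dendritic cell markers (119 CPM) and regulatory T cell markers (49.8 CPM), and 23 for B cell markers (7.2 CPM). Type I interferon response genes such as Isg15 and Ifit1 ranked 1, 2 and 4 in the 3 libraries, in the order named. In the same order the other interferon-induced GTPase genes ranked 1, 3 and 2, and the other interferon γ targets 4, 1 and 3. The interferon γ ligand, receptor and signalling genes ranked 2, 3 and 1, and the inducers of interferon γ 10, 1 and 12.

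Among T-bet knockout females, the batch 1 libraries (replicates 1 and 3) had 85.2 and 81.0 CPM of type 1 lymphocyte genes and 709 and 716 CPM of members. The batch 2 libraries (replicates 2 and 4) had 30.1 and 20.3 CPM of these genes and 2274 and 661 CPM of members. Within batch 2 the library higher in the members was also the higher in type 1 lymphocyte genes. Within batch 1 the library slightly higher in the members was the slightly lower in these genes. Control females had 12.2 to 27.5 CPM. Of the 16 type 1 lymphocyte genes all were positive in the comparison of females and 0 were called, with a median log2 fold change of 1.36. Of 8 T cell markers 7 were positive (median 0.99), with sums of 18.3 to 32.9 CPM in control females and 19.0 to 65.2 CPM in the knockouts. Of 10 macrophage markers 10 were positive and 0 called (median 0.84). Their sums were 398 to 1056 CPM in control females and 1256 to 1672 CPM in T-bet knockout females and did not overlap. The sums of the 22 other interferon γ targets did not overlap either, at 2022 to 3469 CPM in control females and 3978 to 4761 CPM in the knockouts. Of all single genes, 2.83% had every T-bet knockout female library above every control. That share does not apply to sums over many genes, for which no share was computed. No T cell or macrophage marker was at 0 in any of these libraries, and Xcl1 was the only type 1 lymphocyte gene at 0 in any of them. No gene of the other 9 marker lists was called in this comparison either. Their median log2 fold changes were 0.55 for regulatory T cells, 0.52 for endothelium, 0.49 for adipocytes, 0.47 for B cells, 0.36 for dendritic cells, 0.25 for stromal progenitors, 0.25 for mesothelium and 0.04 for lymph node stroma. Ductal epithelium markers had a median of -3.03, with 0 of 5 tested markers positive, and control female replicate 1 held the highest sum of them. The part of these cells in the members' change was not tested.

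**Figure D5:**
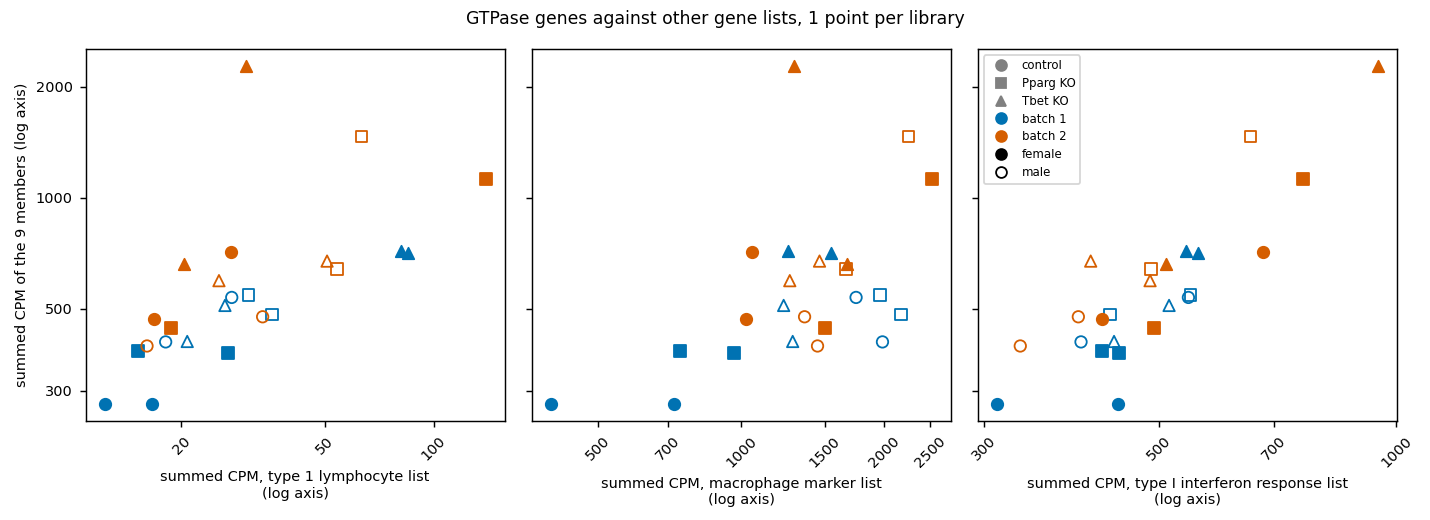
Summed CPM of the 9 members (vertical, log axis) against the summed CPM of type 1 lymphocyte genes, macrophage markers and type I interferon response genes (horizontal, log axes), 1 point per library; shape gives the genotype, colour the batch, and filled points are females. The library with 2274 CPM of members lies at 30.1 CPM of type 1 lymphocyte genes, while the library with the most of these, 140 CPM, has 1125 CPM of members.

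The rest of the pathway was read from gene lists. Of 20 other interferon-induced GTPase genes 3 rose in T-bet knockout females, all relatives of the members: Tgtp1 (log2 fold change 1.85, SE 0.39, adjusted p = 0.0275) and Tgtp2 (1.89, SE 0.41, adjusted p = 0.0325), effector IRGs with near-identical sequences, and Gbp9 (1.13, SE 0.26, adjusted p = 0.0387). In this list 19 of 20 were positive, with a median of 1.21. Of 22 other interferon γ targets 6 rose: the ubiquitin-like gene Ubd (4.30, adjusted p = 0.0358), the complement inhibitor gene Serping1 (0.88, adjusted p = 0.0387), the peptide transporter gene Tap1 (1.25, adjusted p = 0.0413), the immunoproteasome genes Psmb9 (1.07, adjusted p = 0.0429) and Psmb8, and Nlrc5, an activator of class I genes. Psmb8 and Nlrc5 lie outside the rule for named genes and were named after their values were seen. The list's median was 0.80. Of 20 type I interferon response genes 0 were called, 19 were positive and the median was 0.47, and of 10 genes that induce interferon γ, such as the interleukin 12 and 18 genes, 0 were called (median 0.54).

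Of the 14 genes of the ligand, receptor and signal chain 0 were called in T-bet knockout females, with a median of 0.38. Ifng itself, the ligand, was low, at 0 to 3.31 CPM and 0 to 82 counts per library. The 1 library at 0, Pparg knockout female replicate 1, allows a level of up to 0.208 CPM (3 counts, counting error only). The log2 fold change of Ifng was 0.87 (SE 0.63, adjusted p = 0.50). Its level followed the batch: 0 to 0.909 CPM in the 12 batch 1 libraries and 0.744 to 3.31 CPM in the 12 batch 2 libraries. Irf1 gave 0.79 (SE 0.19, adjusted p = 0.0508) and the target chemokine gene Cxcl9 0.89 (SE 0.53, adjusted p = 0.397). In the other 3 comparisons of knockout with control no gene of the 17 lists was called.

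The members rose and fell together from library to library. With group means and batch removed, Pearson's r between 2 members ranged from 0.773 (Gbp3 and Igtp) to 0.969 (Igtp and Irgm2) over 24 libraries, with a median of 0.865 over 36 pairs. Spearman's rho ranged from 0.623 to 0.929, with a median of 0.814. With the 2 libraries farthest from the median left out of each pair, r ranged from 0.649 to 0.957. The pairs were tested by permutation, two-sided, with 100000 resamples. The largest Benjamini-Hochberg adjusted p over the 36 pairs was 2e-05 for r, close to the smallest that the resamples can give, and 0.00142 for rho. All points share library scaling and tissue makeup, and the part of reads shared by Igtp and Irgm2 in their r was not tested.

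Ranked by Pearson's r with the mean of the standardised members over the same 24 libraries, with group means and batch removed, the genes most like the members among 12548 included Psmb9 (0.907), Stat2 (0.904), Tgtp2 (0.903), Tap1 (0.887), Tgtp1 (0.885), Zbp1 (0.882), Irf1 (0.877), Ifi47 (0.864) and Tap2 (0.863). With batch alone removed the top 5 included Tgtp2 (0.940), Tgtp1 (0.931), Psmb9 (0.930) and Tap1 (0.925). Cxcl9 ranked 98 (r = 0.655). Ifng was too low to be among the ranked genes, and its r of 0.268 would place it at 3201. It had 0 to 22 counts in the batch 1 libraries, so counting error weighs on its r. That value cannot be compared with those of the more abundant genes. In the 3 libraries in which the members were highest, Ifng was at 2.45 CPM (T-bet knockout female replicate 2), 1.59 CPM (Pparg knockout male replicate 2) and 2.65 CPM (Pparg knockout female replicate 4), and its highest level was 3.31 CPM in T-bet knockout male replicate 4.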

How the data were processed

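Whole visceral fat RNA of 24 libraries was measured by RNA sequencing. The authors deposited raw counts per gene, made with featureCounts per the submitters' processing notes, which also list limma and the builds GRCm38 and mm10 without roles; the sources used here name no versions, aligner or annotation. The authors also deposited log2 FPKM values for 15764 genes, used for levels per length and 1 alternative test; their offset and any scaling between libraries are not stated. Of the 27179 genes, 3.79% have no symbol (0.433% of counts); they were kept in the tests.

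Counts were tested in R 4.3.3 with edgeR 4.0.16: filterByExpr by group (17824 genes), TMM scaling, and the robust quasi-likelihood F test, fitted on the 24 libraries together with terms for the 6 groups and for batch (17 residual degrees of freedom, common biological coefficient of variation 0.404). Genes with a Benjamini-Hochberg adjusted p under 0.05, adjusted over the whole table, were called in 12 comparisons. Log2 CPM for correlations used a prior count of 2. Levels are TMM-scaled CPM. The procedure was tested on simulated data. Alternatives were DESeq2 1.42.0, RLE scaling, no filter, no batch term, a replicate block, each batch alone, limma 3.58.1 on log2 FPKM, leaving out each library, and, chosen after seeing the data, removal of the 3 highest knockout libraries and limma voom with quality weights.

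Whether each library is a different animal is not stated, and p-values therefore reflect only how libraries vary. For control female replicate 1 the title and the source name disagree on number and batch; the title was followed and the other batch tried. No 2 libraries of a group agreed within sampling noise. The members and the 17 other lists (181 genes) were chosen with earlier results of these data known. Named were all members, Ifng, Irf1, Cxcl9, up to 4 called genes per list with the smallest adjusted p, and the genes most like the members above a mean log2 CPM of 1; a gene that this rule names is not reported here, though every count includes it. The lists were other interferon-induced GTPases, interferon γ ligand, receptor and signalling, its inducers, its other targets, type I interferon response, type 1 lymphocyte, and markers of T cells, regulatory T cells, B cells, macrophages, dendritic cells, endothelium, adipocytes, stromal progenitors, mesothelium, lymph node stroma and ductal epithelium. Promoter windows and positions are from RefSeq GRCm38.p6.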

Additional observations from a re-analysis of the deposited data

Results flagged for a closer look

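A library stood apart from the other 3 of its group, by Dixon's test for 4 samples, in 19 of 54 combinations of member and group. The test was run on CPM and not on log2 CPM. For normally distributed values chance flags about 1 in 20 such groups. CPM values are skewed toward high levels, so that rate need not hold here, and 19 of 54 cannot be set against it. The members are also not independent of each other, since the same libraries recur. All 19 belong to 3 libraries, all of batch 2. T-bet knockout female replicate 2 was flagged for Gbp3 (179 CPM), Gbp5 (97.1 CPM), Gbp7 (202 CPM), Irgm1 (127 CPM), Irgm2 (317 CPM) and Iigp1 (540 CPM), but not for the called gene Gbp4.

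Pparg knockout female replicate 4 was flagged for Gbp3 (112 CPM), Gbp4 (146 CPM), Gbp5 (65.1 CPM), Gbp7 (105 CPM), Igtp (88.5 CPM), Irgm1 (80.3 CPM), Irgm2 (112 CPM) and Iigp1 (187 CPM). Pparg knockout male replicate 2 was flagged for Gbp2 (279 CPM), Gbp5 (68.5 CPM), Igtp (136 CPM), Irgm2 (206 CPM) and Iigp1 (390 CPM). No library was flagged for any member in control females, control males or T-bet knockout males. No difference of effects between the sexes was called for a member.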

How the results depend on the processing

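Gbp4 and Gbp5 were higher in T-bet knockout females than in controls under every alternative run. In T-bet knockout against control females the 2 called members became 8 with DESeq2, 8 in batch 1 alone, 0 in batch 2 alone and 0 without the batch term (Gbp4 adjusted p = 0.0931), and 0 to 3 with a library left out. Over all genes DESeq2 called 1269, against 218 by edgeR, 28 without the batch term, 115 without a filter, 340 with limma on log2 FPKM, 474 with limma voom, 619 in batch 1 alone and 119 in batch 2 alone. T-bet against Pparg knockout females gave 2 in batch 1 alone. Control males against females gave 1 with DESeq2, 1 with control female replicate 1 in batch 2, 5 in batch 1 alone, 1 without the 3 highest knockout libraries, and 0 to 1 with a library left out. Pparg knockout males against females gave 1 in batch 1 alone, 1 without the 3 highest libraries, and 0 to 1. T-bet knockout males against females gave 3 with DESeq2, 2 in batch 1 alone, 1 with limma on log2 FPKM, 1 with limma voom, and 0 to 3. The T-bet difference of effects gave 5 in batch 1 alone. The test of any difference gave 9 with DESeq2, 1 without the batch term, 8 in batch 1 alone, 0 in batch 2 alone, 2 with limma voom, and 2 to 7. The median correlation between members was 0.807 without the 2 farthest libraries of each pair. For the other comparisons, and for fits with a library left out, the calls over all genes are not given here. Those counts of members therefore cannot be set against a share of all genes and are no result about the members. The causes were not tested. Each batch alone holds 2 libraries a group.

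The title numbers share only a number: residuals of same-numbered libraries had a median correlation of -0.092, with 13 of 60 pairs over 0.1. Replacing batch by a replicate block, 2 members were called for any difference (4 without it) and 2 in T-bet knockout females, and over all genes 128 were called there.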
